A study of Homo sapiens with 38 samples.

Results

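The regions described here are places where BHLHE40 bound acetylated chromatin at the end of a gene without an overlapping region of GATA3. They were selected on measured values: a BHLHE40 region had to overlap no GATA3 region, share at least 1 bp with an H3K27ac region, and have its summit, the point of highest signal, within 1 kb of either end of a RefSeq gene record. Of 26205 BHLHE40 regions, 12328 overlapped no GATA3 region, 9262 of those overlapped H3K27ac, and 5153 of these lay at a gene end, which is 19.7% of the BHLHE40 list. The lists came from chromatin immunoprecipitation and sequencing of Jurkat cells, an established line of T-cell acute lymphoblastic leukaemia, in 3 groups of 2 samples named Ctrl_LV (control lentivirus) with antibodies against BHLHE40, GATA3 or H3K27ac. All 3 groups had received PMA (50 ng/ml) together with ionomycin (500 ng/ml), for 5 hours in the sample labels and for 2 hours in the treatment protocol. The series holds 38 samples in 19 groups. The other 16 groups are not analysed here. Each of the 3 groups is represented by 1 list of regions, so no value has a replicate error, and neither the depth of the samples nor differences between them can be read from the lists.

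BHLHE40 is a basic helix-loop-helix protein that binds the palindromic E-box CACGTG as a dimer and is best known as a transcriptional repressor and a regulator of the circadian clock. In T cells it is induced by receptor signals and shapes cytokine production. H3K27ac, acetylation of lysine 27 on histone H3, marks active promoters and enhancers, and GATA3 is a zinc finger factor of the T lineage that binds GATA sequences.

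Intervals below are 95% Wilson intervals for shares, Newcombe intervals for differences of shares and order-statistic intervals for medians. They cover counting error over regions, which are not replicates of a condition. Where 2 classes are compared, the BHLHE40 regions without GATA3 are set beside the 3812 acetylated BHLHE40 regions at gene ends that overlap a GATA3 region (here the GATA3-shared regions) and the 4109 acetylated BHLHE40 regions without GATA3 whose summits lie farther than 1 kb from any gene end (here the distal regions).

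The palindromic E-box CACGTG stood near the BHLHE40 summit in some of the strongest of these promoters. The stretches below show 8 of them, chosen as the strongest named regions with CACGTG within 50 bp of the summit. They are RefSeq sequence of GRCh38.p14, read 5′ to 3′ on the strand of the gene, upstream of its start, with CACGTG in capitals.
CCDC86: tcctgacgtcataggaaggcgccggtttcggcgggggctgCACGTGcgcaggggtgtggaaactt
SCAP: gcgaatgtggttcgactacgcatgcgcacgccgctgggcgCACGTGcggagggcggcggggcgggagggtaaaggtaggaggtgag
BNIP3: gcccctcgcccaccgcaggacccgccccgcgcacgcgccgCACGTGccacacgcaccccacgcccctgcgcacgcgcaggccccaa
PSME3: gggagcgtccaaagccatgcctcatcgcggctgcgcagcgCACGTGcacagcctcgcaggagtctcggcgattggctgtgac
GAPDH: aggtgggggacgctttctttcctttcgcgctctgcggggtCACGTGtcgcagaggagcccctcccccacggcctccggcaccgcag
SIRT1: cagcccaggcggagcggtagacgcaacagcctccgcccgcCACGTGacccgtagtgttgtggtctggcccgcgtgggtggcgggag
DYRK1B: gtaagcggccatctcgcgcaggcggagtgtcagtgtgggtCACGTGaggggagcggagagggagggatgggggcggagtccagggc
DHODH: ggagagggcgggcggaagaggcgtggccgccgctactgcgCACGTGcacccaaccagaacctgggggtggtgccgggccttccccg

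The CCDC86 stretch lies at chr11:60842048-60842112 on the plus strand, and its CACGTG begins 25 bases before the gene start. The region over it, chr11:60841576-60842477, had the highest BHLHE40 signal value of all 5153, at 140, and ranked 12 in the whole BHLHE40 list. The signal value is the authors' enrichment of a region, and its size is compared here only within a list. The SCAP stretch, chr3:47475954-47476039 on the minus strand, belongs to a region of signal 64.2 whose nearest gene record end is that of the non-coding gene LOC105377073. No end of the SCAP record lay within 1 kb of the summit, so the stretch stands before an internal start of SCAP. SCAP, a sterol sensor, escorts the membrane-bound transcription factors SREBP1 and SREBP2 out of the endoplasmic reticulum. BNIP3, a mitophagy receptor induced by hypoxia, has its stretch at chr10:131982012-131982097 on the minus strand, with a signal of 56.4. PSME3 encodes an activator of the proteasome, and its stretch at chr17:42833315-42833396 on the plus strand lies in a region of signal 41.6. The glycolytic gene GAPDH has its stretch at chr12:6535143-6535228 on the plus strand, before an internal start of the gene, in a region of signal 27.9. SIRT1, an NAD-dependent deacetylase, has its stretch at chr10:67884493-67884578 on the plus strand, with a signal of 20.1. The DYRK1B stretch, chr19:39834179-39834264 on the minus strand, lies in a region of signal 19.6 that is also at an end of FBL, the gene of the ribosomal RNA methyltransferase fibrillarin. DHODH encodes an enzyme of pyrimidine synthesis, and its stretch at chr16:72008545-72008630 on the plus strand lies in a region of signal 19.5. In these 8 windows the centre of CACGTG was 20.5 to 48.5 bp from the BHLHE40 summit.

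Sequence could be read for the regions whose summit lay in a RefSeq promoter window, which runs from 250 bases before to 50 bases after a gene start. This held for 2611 of the 5153 regions, each in a window of its own. CACGTG, on either strand, was present in 370 of these 2611 windows, 14.2% (12.9 to 15.6), against 7.26% of all 35116 promoter windows. Within 100 bases around the summit alone it was present in 203 of the 2611, 7.77%, a share of shorter stretches that cannot be set beside the 7.26%. The GATA3-shared regions had it in 249 of 1980 windows, 12.6% (11.2 to 14.1), and the difference of 1.60 points had an interval of -0.406 to 3.56 that includes 0. Promoter windows that overlapped an H3K27ac region with a −log10 q of at least 5 but no BHLHE40 region held CACGTG in 6.20% of 1370 cases. That was 7.97 points (6.06 to 9.78) below the regions without GATA3. The same order held for the longer TCACGTG, found in 9.0% of windows with these summits, 7.53% of the GATA3-shared, 3.28% of the acetylated windows without BHLHE40 and 3.71% of all windows. Most of the 2611 windows, 2241, held no CACGTG.

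Promoters differ in CpG content, and that content moved with the classes. The median window held 29 CpG dinucleotides for the regions without GATA3, 26 for the GATA3-shared, 23 for the acetylated windows without BHLHE40 and 14 over all windows. Within windows of 15 to 24 CpG, CACGTG was present in 13.0% of 660 windows of the regions without GATA3, 12.2% of 640 GATA3-shared windows and 8.16% of 331 acetylated windows without BHLHE40. Among windows of 25 to 34 CpG the shares were 13.8%, 13.6% and 5.28%. At 35 CpG or more they were 16.3%, 15.1% and 5.76%. In the poorest class, with at most 14 CpG, they were 11.3% of 186, 5.53% of 199 and 5.71% of 403 windows. The share of the regions without GATA3 was above that of acetylated windows without BHLHE40 in all 4 classes, with intervals apart in the upper 2. Its interval overlapped that of the GATA3-shared windows in each class.

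CACGTG was commonest under the strongest BHLHE40 signals. When the 5153 regions were split by signal value into 10 groups of like size, the letters were in 8.85 to 12.9% of windows in the lower 7 groups. The shares in the upper 3 groups were 15.8% of 303, 17.8% of 287 and 25.7% of 292 windows (21 to 31). The strongest group, with signals of 17.1 to 140, exceeded the other 9 together, at 12.7%, by 13.0 points (8.08 to 18.4). Its windows also held more CpG, with a median of 32.5 against 28 in groups 1 to 8, and the part of CpG content in this was not tested. Read the other way, the median signal was 11.2 (10.4 to 11.9) with CACGTG, 9.34 (9.15 to 9.53) without it and 13.0 (10.9 to 16.0) in the 52 windows with 2 or more copies. At matched signal the regions without GATA3 had the larger share in 9 of 10 groups and the GATA3-shared regions in 1, although the intervals overlapped in each group. In the strongest group the GATA3-shared regions reached 18.4% of 577 windows (15.4 to 21.7).

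**Figure D1:**
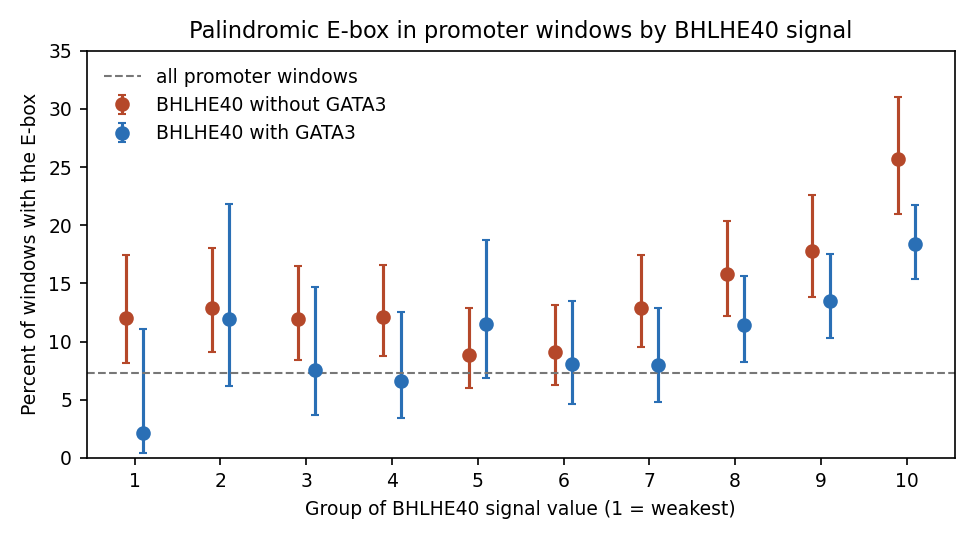
Share of promoter windows that hold the palindromic E-box (vertical axis, percent) by group of BHLHE40 signal value (horizontal axis, 10 groups from weakest to strongest, set on the regions without GATA3) for regions without and with GATA3, with 95% Wilson bars; the dashed line is the share over all promoter windows, 7.26%. The share in regions without GATA3 stays between 8.85% and 12.9% in the lower 7 groups and reaches 25.7% in the strongest.

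The letters were also close to the summit. Among the 318 windows with a single CACGTG, the median distance from its centre to the BHLHE40 summit was 44.5 bp (35.5 to 48.5), and 55.7% (50.2 to 61.0) lay within 50 bp. CAGCTG, the E-box with another centre that E proteins such as TCF3 bind, was 85.5 bp away at the median (70.5 to 93.5) with 35.2% (30.7 to 40) within 50 bp in 406 windows. CATATG, another E-box, gave 55.5 bp (26.5 to 66.5) in only 25 windows. The ETS-type letters CCGGAAG lay at a median of 53.0 bp (49.0 to 59.0) in 539 windows, nearer than GGGCGG, the GC box of SP1, at 72.5 bp in 717 windows. CCAAT lay at 75 bp in 570 windows and the YY1-type AAGATGGC at 82.5 bp in 125. The single AGATAA matches were farthest, at 130 bp (94.5 to 180) in 55 windows. The 300 bases of a window limit all these distances.

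**Figure D2:**
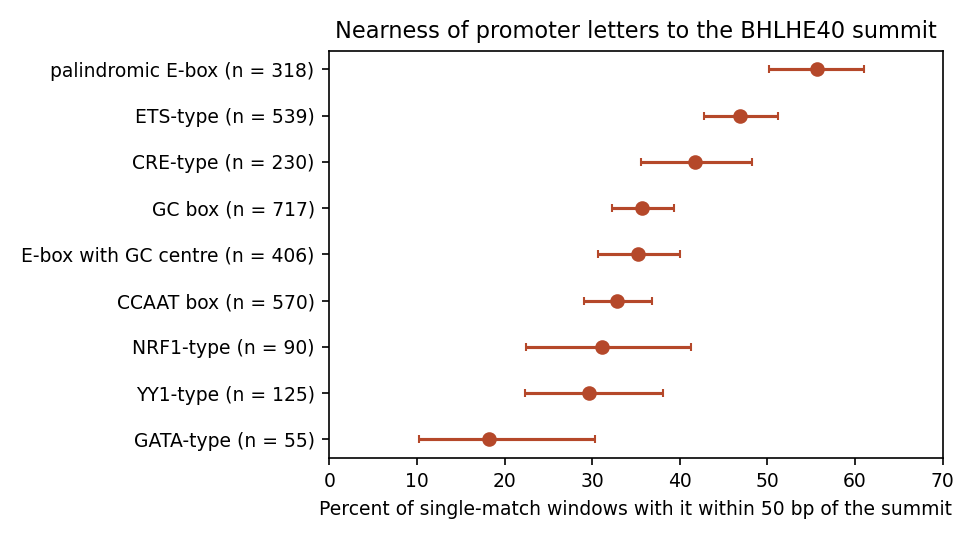
Share of windows with a single match in which the match lies within 50 bp of the BHLHE40 summit (horizontal axis, percent, with 95% Wilson bars) for 9 short promoter sequences (vertical axis, with the number of windows), in regions without GATA3. The palindromic E-box is highest at 55.7%, the ETS-type sequence next at 46.9% and the GATA-type lowest at 18.2%.

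The letters of GATA factors were scarce in these windows. AGATAA was in 55 of 2611, 2.11% (1.62 to 2.73), against 10.3% of all promoter windows, 7.47% of the GATA3-shared and 5.84% of the acetylated windows without BHLHE40. The difference from the GATA3-shared windows was -5.37 points (-6.70 to -4.12). The shorter GATAA gave 7.51% and a difference of -10.9 points (-12.9 to -8.91). GATA with A or T before it and A or G after it was in 8.73% of the windows, 19.6% of the GATA3-shared and 25.0% of all windows. AT-rich letters are rarer in CpG-rich windows, so the shares are also given by CpG class, in the order regions without GATA3, GATA3-shared and acetylated without BHLHE40. AGATAA was in 5.91%, 23.1% and 13.4% of windows with at most 14 CpG, and in 3.64%, 8.44% and 5.14% at 15 to 24 CpG. At 25 to 34 CpG it was in 1.78%, 5.32% and 2.64%, and at 35 or more in 0.266%, 1.70% and 0%. The regions without GATA3 were below the GATA3-shared in each class, with intervals apart in the lower 3 and overlapping at 35 CpG or more. Against the acetylated windows without BHLHE40 the intervals were apart only at 14 CpG or fewer (3.33 to 10.3 against 10.4 to 17.1).

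Other promoter letters also differed in share between the regions without GATA3 and the GATA3-shared ones, in part less so at matched CpG. The GC box GGGCGG was in 77.1% of windows against 68.3% of the GATA3-shared, a difference of 8.73 points (6.12 to 11.3), and in 45.0% of all windows. The TATA-like TATAAA was in 3.29% against 5.66% (difference -2.36, -3.63 to -1.16) and in 11.5% of all windows. AAGATGGC, the core of the YY1 site, was in 4.86% against 12.4% (difference -7.51, -9.21 to -5.87) and in 2.89% of all windows. CCGGAAG was in 26.8% against 29.9% (difference -3.18, -5.82 to -0.550), and in 10.3% of all windows. Within the 4 CpG classes, the intervals for AAGATGGC were apart in the upper 3, those for GGGCGG only at 35 CpG or more (93.1% against 84.7%) and those for TATAAA only at 25 to 34 CpG (2.08% against 4.56%). For CCGGAAG they overlapped in all 4 classes, and with at most 14 CpG its share was the higher one without GATA3, 18.8% against 12.6%. A match is a string of letters and not a measured site of a factor.

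Most of the regions sat on gene starts. A start could be assigned through the promoter table for the 4951 regions on the 23 chromosomes it covers, and 3910 of them, 79.0%, had a listed start within 1 kb. The start was within 100 bp of the summit in 38.1% and within 250 bp in 62.1%. The median summit was 43 bp upstream of the start (-136 to 50 bp, quartiles), and 60.9% (59.4 to 62.4) of summits were upstream. The GATA3-shared regions were much alike, with a median of 36 bp upstream and 61.9% upstream. Starts on opposite strands pointing away from each other lay within 1 kb of the summit in 24.3% (23 to 25.6) of the 3910 regions, against 30.5% (28.8 to 32.3) of 2775 GATA3-shared regions.

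**Figure D3:**
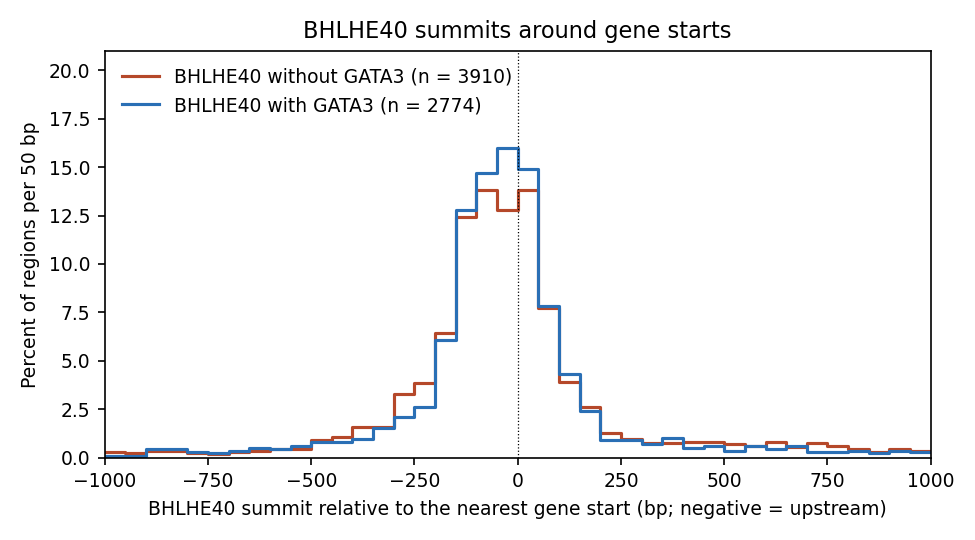
Position of the BHLHE40 summit relative to the nearest listed gene start (horizontal axis, bp, negative upstream) as percent of regions in steps of 50 bp (vertical axis), for regions without and with GATA3 that have a start within 1 kb. Both curves peak within 150 bp of the start on the upstream side and just past it; the medians are 43 and 36 bp upstream.

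The nearest gene end was that of a protein-coding gene in 4045 regions, 78.5% (77.4 to 79.6), against 73.0% of the GATA3-shared and 52.0% of the distal regions. Long non-coding RNA genes followed with 859 regions, 16.7%. A tRNA gene was nearest in 40 regions and a miRNA gene in 34. Ends of at least 2 gene records lay within 1 kb of the summit in 35.1% (33.8 to 36.4) of the regions and 37.0% of the GATA3-shared. With only protein-coding records counted, it was 18.4% of the 4465 regions at such an end. Ends were read as 5′ or 3′ only for genes whose strand was known, which left 1011 regions unclassed. Of the others, 176 had nothing but 3′ ends within 1 kb, and 67.6% (60.4 to 74.1) of these overlapped H3K27ac with a −log10 q of at least 5, against 90.9% (90 to 91.8) of 3966 regions with a 5′ end within 1 kb and 85.5% of the unclassed. The strongest region with 3′ ends alone was at ZNF653, a zinc finger gene, at chr19:11481701-11483210 with a BHLHE40 signal of 92.3, its summit 740 bp from the gene's 3′ end.

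Most of these regions overlapped H3K27ac of a stricter threshold, though the rule had asked only for 1 bp of overlap. An H3K27ac region with a −log10 q of at least 5 was overlapped by 4588 of 5153, 89.0% (88.2 to 89.9). A region that overlapped several counted if any of them passed. The share of the whole H3K27ac list that passes was not computed, and the classes compared here were all chosen by H3K27ac overlap. The share was 93.6% in the GATA3-shared regions, a difference of -4.59 points (-5.74 to -3.43), and 67.8% in the distal regions, a difference of 21.2 points (19.5 to 22.9). The strongest overlapped H3K27ac region had a median signal value of 6.39 in the regions without GATA3, 7.93 in the GATA3-shared and 4.17 in the distal. BHLHE40 region width moved with the classes, with medians of 952, 1221 and 662 bp. Among regions of 701 to 1278 bp the shares at a −log10 q of at least 5 were 91.4% of 2577, 95% of 1605 and 78.6% of 1428, in the same order.

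BHLHE40 signal and acetylation rose together only weakly across the regions. The median H3K27ac signal was 5.77 in the weakest of the 10 groups by BHLHE40 signal and 7.18 in the strongest, and Spearman's rho was 0.164 over 5153 regions of the same 2 lists. Region width went with both, with rho of 0.314 to BHLHE40 signal and 0.288 to H3K27ac signal. In each of these 10 groups the GATA3-shared regions had the higher median H3K27ac signal, for example 8.21 against 7.18 in the strongest.

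The summit itself lay inside an H3K27ac region in 4086 cases, 79.3% (78.2 to 80.4), against 81.2% in the GATA3-shared and 66.8% in the distal regions. In 442 regions, 8.58%, it fell in a gap with acetylated regions on both sides, and in 625, 12.1%, acetylation was on 1 side only. Oriented by the start within 250 bp, H3K27ac covered 81.0% of 3076 regions at the summit, 80.4% at 250 bp into the gene and 66.4% at 250 bp upstream. At 500 bp the coverage was 57.4% into the gene and 42.2% upstream. The GATA3-shared regions showed the same lean with higher levels, 91.4% against 75% at 250 bp.

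**Figure D4:**
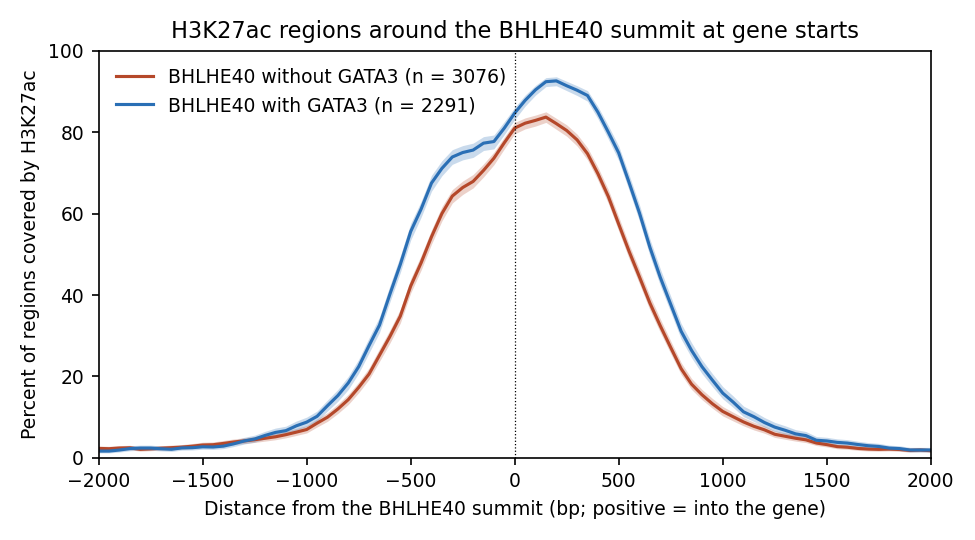
Percent of regions whose position is covered by an H3K27ac region (vertical axis) by distance from the BHLHE40 summit (horizontal axis, bp, positive into the gene), for regions with a listed start within 250 bp, with 95% Wilson bands. Coverage at the summit is 81.0% without and 84.7% with GATA3, and it reaches farther into the gene than upstream in both.

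The BHLHE40 signal of the regions, which also chose them, ranged from 1.38 to 140 with a median of 9.03. The GATA3-shared regions had a median of 13.0 and the distal regions 7.67. After CCDC86 and ZNF653, the strongest were at ZNF384 (67.2), a zinc finger gene rearranged in some leukaemias, at LOC105377073 (64.2) and at ERLIN2 (60.9). The LOC105377073 region is the one at the internal start of SCAP. ERLIN1, with the nearby CHUK (58.8), is the paralog of ERLIN2, and the proteins of both sit in lipid rafts of the endoplasmic reticulum. The list went on with BNIP3 (56.4), DRAP1 with C11orf68 (55.7), the homeobox gene PKNOX1 (52.7) and NUCKS1 (50.9). A GATA3 region lay 167 bp from the one at NUCKS1. CHUK encodes IKKα of the NF-κB pathway, and DRAP1 a subunit of the transcriptional repressor NC2. Of these 10 regions, 3 had CACGTG in a window, those at CCDC86, SCAP and BNIP3, and 2 had a window without it, those at ZNF384 and DRAP1.

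The highest overlapped H3K27ac signals belonged to other genes: BRAT1 (33.0), PPP2R3B (32.0), GOLGA3 (31.7), FRAT1 (31.4) and FBXO33 with LOC105370461 (30.4). Their BHLHE40 signals were 11.3, 6.31, 22.3, 10.8 and 21.2. The widest regions were at BACH2 (7894 bp), HSP90AA1 (7240 bp) and NFKBIA (5206 bp). BACH2 is a repressor of the lymphoid lineage, HSP90AA1 a heat shock chaperone and NFKBIA the inhibitor of NF-κB. The regions at BACH2 and HSP90AA1 had their summits near a 3′ end and outside H3K27ac. Of 4999 protein-coding genes with such a region, 4692 had 1, 293 had 2 and 13 had 3. ATP1B3, a subunit of the sodium pump, had 4, with signals of 6.05 to 12.4.

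These genes made up 24.9% (24.3 to 25.5) of 20052 protein-coding gene records, and GATA3-shared regions stood at 18.5% (17.9 to 19), with 262 genes holding both. The following counts set 21 lists of genes beside these shares. All but 3 of them lay above the overall share without GATA3, and all but 2 above that of the GATA3-shared regions, so both classes are given side by side. Both classes need H3K27ac, and the lists differed in it. Genes with H3K27ac at an end were 45 of 45 in the lysosome list and 39 of 39 aminoacyl-tRNA synthetase genes. They were 23 of 50 KRAB zinc finger genes and 3 of 20 markers of other blood lineages. The part of acetylation in the shares of the lists was not tested.

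Genes of the lysosome and its proton pump had the highest share of any list. A region without GATA3 was at 28 of 45, 62.2% (47.6 to 74.9), and a GATA3-shared region at 13, with no gene in both. The strongest were at GUSB (36.6), the enzyme beta-glucuronidase, ATP6V1D (20.9), CLN3 (20.4) and ATP6V0D1 (17.8). ATP6V1D and ATP6V0D1 are subunits of the vacuolar ATPase, which acidifies the lysosome, and CLN3 is a lysosomal membrane protein. Of the 19 with a promoter window, 8 held CACGTG, 42.1%, against 14.2% over all windows of these regions, and so did 2 of the 4 GATA3-shared windows of the list. The factors TFEB and TFE3, known for driving lysosomal genes, bind the extended form of these letters. To show the letters in their setting, 30 bases are given for the 5 windows of this list with CACGTG within 50 bp of the summit, which were chosen after their values were seen.
ATP6V0D1: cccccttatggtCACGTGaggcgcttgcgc
LAMTOR1: ctttccccgcatCACGTGcttgcgtgtacg
HNRNPH2: gacgtaggcgctCACGTGattactcgctta
CTSA: gaggaagactgtCACGTGgcgccggagttc
LAMTOR4: agcggctgcaagCACGTGaccggggcctga

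These lie at chr16:67481199-67481228 (minus strand), chr11:72103445-72103474 (minus), chrX:101408201-101408230 (plus), chr20:45891281-45891310 (plus) and chr7:100148892-100148921 (plus) of GRCh38.p14. The HNRNPH2 stretch belongs to the region at GLA, the gene of alpha-galactosidase A, whose start is close by. LAMTOR1 and LAMTOR4 are parts of the Ragulator complex that docks mTORC1 on the lysosome, and CTSA is the protease cathepsin A. Their BHLHE40 signals were 17.8, 14, 13.3, 12.6 and 8.39, and the distances from summit to CACGTG 33.5, 1.5, 12.5, 23.5 and 11.5 bp. The other 3 windows with the letters, at CLN3, MCOLN1 and ATP6V0B, had them 54.5 to 73.5 bp away.

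Ribosome biogenesis genes and those of RNA polymerases I and III had a region without GATA3 at 33 of 63, 52.4%, and a GATA3-shared region at 26. Among the strongest were those at FBL (19.6), NOP14 (16.8) and UTP18 (15.9). The region at FBL was read in the promoter window of DYRK1B, whose stretch is shown above. FBL is the methyltransferase fibrillarin of the nucleolus, and NOP14 and UTP18 take part in making the small ribosomal subunit. CACGTG was in 10 of 27 windows, 37.0%, that of DYRK1B included, and in 5 of 17 GATA3-shared windows of the same list. The 4 nearest copies, at GNL2, EBNA1BP2, NOP14 and POLR3C, were 0.5, 2.5, 6.5 and 9.5 bp from the summit. These letters are also the binding sequence of MYC, which is known to drive this group of genes.

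The genes of the cytosolic ribosomal proteins showed the widest gap between the classes of any list. Only 7 of 79 cytosolic ribosomal protein genes, 8.86% (4.36 to 17.2), had a region without GATA3, whereas 73 had a GATA3-shared region, 92.4% (84.4 to 96.5), and 3 of them had both. The 7 were RPL4 (14.5), RPS21 (13.3), RPS19 (12.6), RPL26 (9.52), RPS18 (8.5), RPL30 (7.64) and RPS13 (6.5). Mitochondrial ribosomal protein genes were even between the classes, with 35 and 36 of 79. The strongest without GATA3 were at MRPL38 (24.6), MRPL28 (21.4), MRPL40 (20.9) and MRPL3 (17.6), and 1 of 24 windows held CACGTG, against 3 of 28 GATA3-shared windows.

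Genes of hypoxia and glycolysis had a region without GATA3 at 15 of 32, 46.9%, and a GATA3-shared region at 9. The strongest were at BNIP3 (56.4), GAPDH (27.9), LDHA (18.7), the gene of lactate dehydrogenase A, and the glucose transporter gene SLC2A3 (17.5). CACGTG was in 5 of 8 windows, those of BNIP3, GAPDH, LDHA, EGLN2 and ALDOC, and in 1 of 5 GATA3-shared windows. Nucleotide synthesis genes had 17 of 35 against 9, led by DHODH (19.5), DCK (16.2), RRM2B (13.4) and ADSL (12.8), and 3 of 8 windows held CACGTG, as did 3 of 5 GATA3-shared windows. Aminoacyl-tRNA synthetase genes, whose products charge tRNAs, had 22 of 39 against 15. AARS1 (17.5), SARS1 (16.0), EPRS1 (15.4) and WARS1 (14.6) led them, but only 1 of their 17 windows held CACGTG, and 1 of 8 GATA3-shared windows. A high share of a list and a high share of the letters thus did not always go together.

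E-box binding factors and related basic helix-loop-helix proteins were themselves among these genes, with 16 of 30 against 6 with a GATA3-shared region. By signal they were HIF1A (28.3), TFE3 (18.4), SREBF2 (17.9), USF1 (15.4), MXD4 (14.8), HES4 (13.9), MXD3 (12.2), ARNT (10.6), HEY1 (9.92), TFEB (8.20), USF2 (8.02), MLX (7.32), MLXIP (6.17), SREBF1 (5.83), MYCL (5.36) and MXD1 (4.63). HIF1A and ARNT form the hypoxia-inducible factor, TFE3 and TFEB drive lysosomal genes, SREBF1 and SREBF2 sterol and fatty acid synthesis, and the MXD proteins oppose MYC. The acetylation at TFEB and HEY1 was weak, with a −log10 q of 1.88 and 1.48. Only 1 of the 8 windows in this list, that of MLX, held CACGTG, and neither of the 2 GATA3-shared windows.

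Clock genes had a region without GATA3 at 8 of 28, 28.6%, near the overall 24.9%. A GATA3-shared region was at 9, 32.1% (17.9 to 50.7), against 18.5% overall. Those without GATA3 included the output gene DBP (23), CLOCK (10.2), PER3 (7.84), CSNK1D (6.98), BMAL2 (6.46), NR1D1 (6.15) and TIMELESS (4.21). Neither BHLHE40 nor its paralog BHLHE41 had a region of this kind at an end. CLOCK encodes the partner of BMAL1, and NR1D1 a nuclear receptor that represses BMAL1. Corepressor and SUMO genes had 11 of 25 against 9, led by SIRT1 (20.1), PIAS4 (15.8), SUMO2 (14.4) and RBBP7 (13.0).

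T-cell activation genes had a region without GATA3 at 11 of 40, 27.5% (16.1 to 42.8), close to the overall 24.9%, and a GATA3-shared region at 20, 50.0% (35.2 to 64.8) against 18.5% overall. Those without GATA3 were led by NR4A1 (26.7), JUND (23.3), NFKBIA (22.6) and RELA (18.2). The NR4A1 summit lay near a 3′ end and outside H3K27ac, and the acetylation there was weak, with a −log10 q of 2.92. It was also below 5 at NFATC1 (2.46), FOSL1 (3.25), TBX21 (4.21) and IL2RA (2.58), and above 5 at the others. T-cell receptor and identity genes had 11 of 38, 28.9%, against 13, 34.2% (21.2 to 50.1), led by NOTCH1 (33.2), the receptor often mutated in this leukaemia, the adaptor gene LAT (17.9), CD3E (15.8) and the recombinase gene RAG1 (11.7). None of the 5 activation and 3 identity windows held CACGTG, whereas 1 of 9 and 2 of 7 GATA3-shared windows did. E proteins and other lymphoid factors had 8 of 21, 38.1%, in both classes, led by ID1 (12.8), RUNX3 (12.1), ID3 (11.9) and MYB (9.40). The ID proteins block E proteins from binding DNA.

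Proteasome genes had 19 of 42 against 23 with a GATA3-shared region, led by PSME3 (41.6), ADRM1 (18.9), PSMD9 (18.1) and PSME1 (12.8). Core spliceosome genes had 15 of 42 against 25, led by U2AF2 (22.6), PHF5A (14.6), PRPF31 (14.6) and PRPF3 (14.3). Nuclear oxidative phosphorylation genes had 28 of 77 against 37, led by ATP5PD (17.1), ATP5ME (15.9), ATP5MF (15.4) and NDUFV2 (15.3). DNA repair genes had 30 of 62 against 28, with ATR (21.7), PARP2 (15.7) and XRCC3 (15.1) among the strongest. Autophagy genes had 16 of 35 against 12, led by MAP1LC3B (20.9), ATG4B (18), GABARAP (16.2) and ATG9A (14.5). Cholesterol synthesis genes had 11 of 26 against 9, with LSS (16.7), IDI1 (13.4) and ACAT2 (11.4) among the strongest and CACGTG in none of their 6 windows and 1 of 4 GATA3-shared windows. KRAB zinc finger genes in clusters on chromosome 19 had 9 of 50, 18%, against 5, led by ZNF160 (16.0), ZNF571 (15), ZNF570 (11.8) and ZNF614 (11.3).

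**Figure D5:**
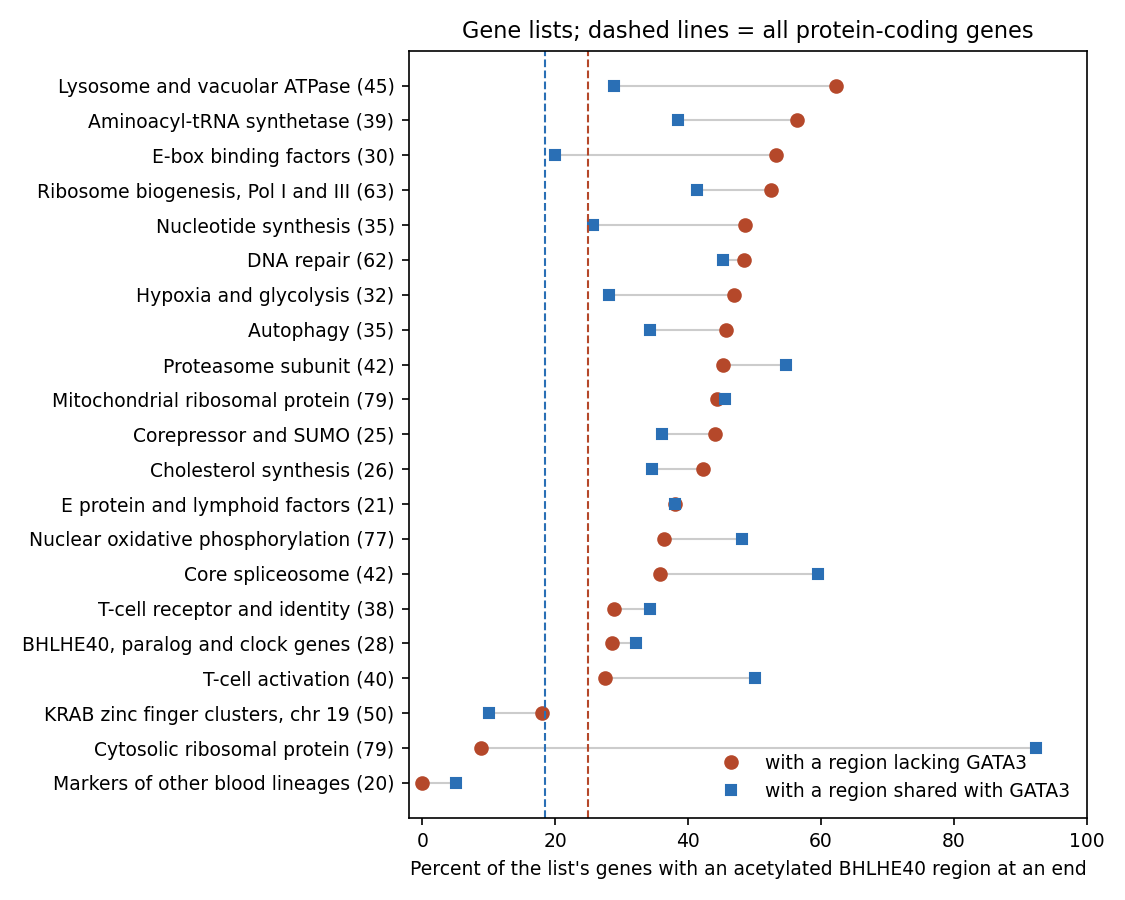
Percent of each list's genes (horizontal axis) with an acetylated BHLHE40 region at an end without GATA3 (circles) or shared with GATA3 (squares), for 21 lists (vertical axis, with the number of genes). Dashed lines give the shares over all protein-coding genes, 24.9% and 18.5%; the lysosome list is highest without GATA3 at 62.2%, and the cytosolic ribosomal protein list stands at 8.86% against 92.4%.

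The lists fitted the labelled cell type in part. An H3K27ac summit of −log10 q at least 5 lay within 1 kb of an end of 6 of 9 genes listed as T-cell markers. These 6 were CD2, CD3D, CD3E, CD7, CD28 and the leukaemia oncogene TAL1. No such summit lay at CD3G, CD5 and LCK. None of 13 genes of other blood lineages had one, though 2 had a weaker summit. In the longer list of 20 such genes, none had a region without GATA3 and 1 had a GATA3-shared region. The regions at gene ends were spread over the chromosomes. Among the nuclear chromosomes, the share of protein-coding genes with one was highest on chromosome 16 at 33.3% and chromosome 19 at 30.7%. It was lower on chromosomes 4 (19.4%), 5 (18.5%) and X (17.0%), and lowest on Y, with 3 of 63 genes (4.76%). On chromosome 19 the GATA3-shared share was low, at 13.0%. On the mitochondrial chromosome, which carries no histones, 8 regions met the rule and lay at ends of 11 of its 13 protein-coding genes, with BHLHE40 signals of 1.38 to 1.59 and H3K27ac signals of 1.28 to 2.62.

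Some regions fell just inside or just outside the limits of the rule. The summits at MYL6 (signal 5.29) and GRK6 (10.2) lay 1000 and 999 bp from a gene end, and those at MYRF-AS1 (8.14) and PLEKHB1 (6.97) lay 1001 and 1002 bp away and did not count. The overlap with H3K27ac was 4 bp at IQSEC2 and 12 bp at RBM19, and a gap of 4 bp left out a region at TNFSF14. A GATA3 region was 14 bp away at CCDC121, which counted, and overlapped by 8 bp at NF2, which did not. Distance to GATA3 was mostly large, with a median gap of 21447 bp from a region to the nearest GATA3 region. Still, 382 regions, 7.41%, had one within 1 kb. These included named regions at EBNA1BP2 (106 bp), NFKBIA (128 bp), NUCKS1 (167 bp) and ID3 (385 bp).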

How the data were processed

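ChIP-seq of Jurkat cells was deposited as 1 list of regions per group of 2 samples. The BHLHE40 (26205 regions) and GATA3 (29009 regions) lists carry an irreproducible discovery rate threshold of 0.05, and the deposited H3K27ac list (113570 regions) is named as pooled, per the labels. Per the submitters' processing notes, MACS2, bcl2fastq 2.20 and hg38 were used; the aligner, filters and use of input are not given in the sources used here. The signal value is the authors' enrichment of a region with no stated reference. The deposited score ran from 540 to 1000 in the factor lists. The deposited −log10 q-values are per region. The size of scores, signals and −log10 q values was compared only within a list. BHLHE40 and H3K27ac values of the same regions were related by rank and by groups of BHLHE40 signal.

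Overlap meant at least 1 bp. Gene ends came from RefSeq GRCh38.p14 (59788 records), and starts, strands and sequences from 35116 promoter windows of 300 bases. Each region was read in the window whose start was nearest to its summit, and letters were searched on both strands. That window can belong to a gene other than the one the region is listed under. All 908 gene list entries were matched by symbol or synonym. Named genes were the 10 strongest regions by BHLHE40 signal, the 5 with the highest H3K27ac signal, up to 4 genes per list, all clock and E-box factors, the 3 widest regions, the genes with most regions and those nearest each threshold; a few genes that this rule names are not reported here. No test over samples was possible. Members and lists were chosen with earlier results of these data known; CpG classes, signal groups, width classes and the windows without BHLHE40 were added after seeing the data. Overlap, distance, interval and letter-search functions were tested on simulated data. The tools were Python 3.11.15, pandas 2.3.3, numpy 2.4.6, matplotlib 3.10.9 and scipy 1.17.1.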

Additional observations from a re-analysis of the deposited data

How the results depend on the processing

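No paired analysis was possible because each group is represented by 1 list without values per sample, and for the same reason no replicate could be left out. Of 65 values under 10 alternative settings, 38 stayed within the interval of the reported value (for the number of regions, within 1.5 times it) and 27 moved; for these the cause was not tested. The number of regions ran from 4237 to 5762. With a score of at least 830, 91.5% had H3K27ac of −log10 q at least 5, 36.7% had ends of at least 2 records, 21.1% of protein-coding genes had a region and the median signal was 9.95. With H3K27ac of −log10 q at least 5 required, 82.6% of summits lay inside it, 79.7% were nearest a protein-coding gene, and the other 3 values were 36.4%, 22.9% and 9.16. With no GATA3 region within 1 kb, 23.2% of genes had a region. Within 500 bp of a gene end the strong H3K27ac share was 90.3%, that of at least 2 records 38.4%, that of genes 21.6% and the median signal 9.16. Within 2 kb the strong H3K27ac share was 87.2%, summits inside 78.1%, protein-coding nearest 76.8%, at least 2 records 31.4% and genes 27.7%. With protein-coding records only, the strong H3K27ac share was 90.5% and that of at least 2 records 18.4%. With listed gene starts only, these were 90.7% and 26.5%, protein-coding was nearest in 85.6%, and 26.9% of genes with a promoter window had a region. CACGTG fell to 7.77% when only 100 bases around the summit were searched, and GATA letters rose to 7.51% with GATAA in place of AGATAA. The CACGTG share over whole windows stayed between 13.9% and 14.7% under the other 8 settings.

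Depth is unknown, and signal values cannot be compared between lists. The absence of a GATA3 region is the absence of a listed region, not of binding. Sequence was read only for summits within promoter windows, so nothing is said of letters in the other regions. A gene end near a region is not shown to be its target.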

Other observations

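The BHLHE40 regions at gene ends that overlapped neither GATA3 nor H3K27ac numbered 747. They were narrower and weaker than the acetylated ones, with a median width of 535 bp and a median signal of 7.23 against 952 bp and 9.03, and their median distance to a gene end was 281 bp against 118 bp. A wider region has more room to overlap H3K27ac, so the split itself favours width, and the part of this was not tested.

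The bases next to CACGTG did not differ beyond their intervals between copies near and far from the summit. A T before or an A after the letters was present at 65.5% (59.1 to 71.4) of 229 copies within 50 bp of the summit and at 64.5% (57.7 to 70.8) of 200 copies farther away. Transcribed pseudogenes had a region without GATA3 at 9.38% of 1268 records and a GATA3-shared region at 4.50%, while tRNA genes went the other way, with 16.1% and 22.4% of 465. The tRNA genes with a region without GATA3 included mitochondrial ones, such as TRNM and TRNH, at regions of signal 1.38 and 1.42.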
